A study of Mus musculus with 8 samples.

Results

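Genes of the unfolded protein response and the integrated stress response were examined in ribosome-associated RNA from the ventral tegmental area (VTA) of mice, a part of the midbrain rich in dopamine neurons. The members are 36 named genes, chosen by their role and taken from a table of 56691 gene IDs; all 36 were found and all 36 passed the filter on low counts, which left 19912 genes. Mice of both groups (male, by the /Y in the genotype) received a pair of viruses in the VTA: AAV-TH-Cre, named for the tyrosine hydroxylase promoter and Cre recombinase, and AAV-Flex-NBL10, whose HA-tagged product NBL10 was used to enrich ribosomes with their mRNA. The Ogtflox+/Y group is called knockdown here (4 libraries, replicates 2, 3, 4 and 5) and the Ogtflox-/Y group control (4 libraries, replicates 3, 4, 5 and 6), so the controls carried both viruses too. The cells affected depend on where the TH promoter of the virus is active, and the labels give no age for the mice. Nothing in the labels ties the replicates to separate mice; the p-values therefore reflect the variation among these libraries alone, part of which could be technical. Ogt encodes O-GlcNAc transferase, which attaches a single sugar to serine and threonine residues of intracellular proteins.

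The endoplasmic reticulum (ER) folds secreted and membrane proteins, and unfolded proteins there are sensed by IRE1, PERK and ATF6. IRE1 splices the Xbp1 message, and ATF6 is cut in the Golgi; the resulting factors raise chaperones and the machinery of ER-associated degradation. PERK, like the amino acid sensor GCN2, phosphorylates the translation factor eIF2, which lowers protein synthesis in general but favours translation of ATF4, a factor that raises genes for amino acid uptake and synthesis and the factor CHOP. Neurons with a large secretory load, dopamine neurons among them, are known to depend on these responses. Counts per gene do not separate spliced from unspliced Xbp1 and do not measure phosphorylation.

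Libraries held 49802305 to 147747191 counted reads, and levels are given as CPM, reads of a gene per 1e6 counted reads, after TMM scaling. The Ogt message was lower in each knockdown library (36 to 74.4 CPM) than in each control library (108 to 159 CPM), with a log2 fold change of -1.34 (SE 0.23, edgeR adjusted p = 0.00243). A pair of libraries stood apart: control replicate 3 had a median correlation of 0.931 with the other controls, against 0.982 to 0.984 among the rest, and knockdown replicate 3 had 0.949 with the other knockdowns, against 0.976 to 0.977. Dopamine neuron markers (9 genes, Th and Slc6a3 among them) summed to 1230 to 2630 CPM in controls and 365 to 583 CPM in knockdowns, and 8 of the 9 fell. Astrocyte markers (10 genes) summed to 1460 CPM in control replicate 3, 3740 to 5520 in the other controls and 9610 to 13800 in knockdowns. Of the 10, 3 were higher, and Gfap alone had 237 to 1860 CPM in controls and 5370 to 8400 in knockdowns. Of 10 oligodendrocyte and 10 microglia markers, 6 and 8 were higher. Endothelial markers (10 genes) summed to 1030 CPM in control replicate 3, 15.3 to 22.8 in the other controls and 31.3 to 49.9 in knockdowns. No marker of these lists was at 0 in any library. In such samples, fewer cells of a type, less RNA per cell and differences in the ribosome enrichment itself cannot be told apart. The part that these markers play in the values that follow was not tested.

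Among the 36 members, 8 rose and 3 fell with knockdown (edgeR quasi-likelihood test, Benjamini-Hochberg adjusted over all genes, threshold 0.05). That is 30.6% of the members, beside 28.5% of all genes tested, so the count of called members was near the background. The calls lay unevenly between the roles. Of 12 genes downstream of ATF4 or on the eIF2 phosphatase (the ATF4 arm), 7 rose and 1 fell, with a median log2 fold change of 0.57. Of 18 chaperone, folding and degradation genes (the ATF6 and XBP1 arm), 1 rose and 1 fell, with a median of -0.04. The median over all genes was 0.00, with 13.4% of all genes higher and 15.1% lower. The difference between the arms was not tested, and members and lists were chosen with earlier results of these data known. With upper quartile scaling, 10 members rose and 2 fell, and calls over all genes shifted the same way (3176 higher and 2432 lower, against 2659 and 3009 with TMM; 28.2% called). Leaving out control replicate 3 gave 10 higher and 3 lower members (9 and 1 in the ATF4 arm, 1 and 1 in the chaperone and degradation arm), with 34.9% of all genes called (18.1% higher, 16.8% lower). Leaving out both libraries numbered 3 gave 15 higher and 8 lower (10 and 1 in the ATF4 arm, 4 and 6 in the other), with 46.8% of all genes called (23.5% higher, 23.3% lower). Leaving out knockdown replicate 4 or 5 left 7 called members each (19.4%), beside 21.1% and 21.8% of all genes. In the chaperone and degradation arm, Sel1l alone was called when knockdown replicate 2 or 3 was removed, Hyou1 alone without control replicate 4, and Sdf2l1 alone without control replicate 5. No gene of that arm was called by edgeR when control replicate 6, or knockdown replicate 4 or 5, was removed (18.8%, 21.1% and 21.8% of all genes).

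**Figure D1:**
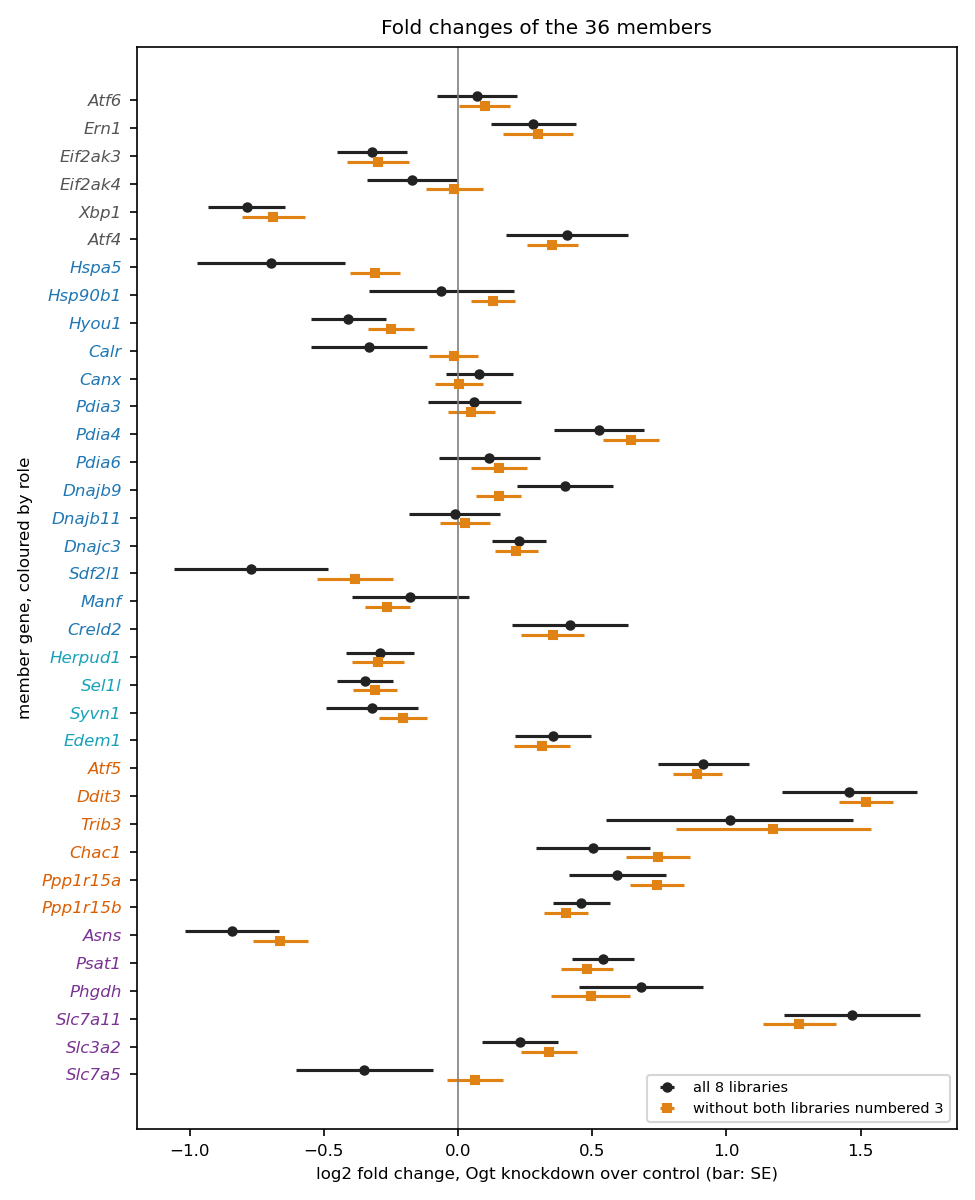
Log2 fold change of each member, Ogt knockdown over control (horizontal axis), with its standard error as a bar, in all 8 libraries (circles, n = 4 and 4) and without both libraries numbered 3 (squares, n = 3 and 3). Gene names are coloured by role; Ddit3, Slc7a11 and Atf5 lie farthest to the right in all 8 libraries among the members called, and Asns and Xbp1 farthest to the left.

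Across all 36 members, every knockdown library lay above every control library for 9 genes (25%) and below for 7 (19.4%); over all genes tested these shares were 17.1% and 18% (35.1% in either direction). In the other 20 members the groups overlapped. Per kilobase of exon, the most abundant members in controls were Calr (139 ± 51 CPM per kb, SD, n = 4), Atf4 (125 ± 29.7), Hspa5 (112 ± 56.1), Pdia3 (102 ± 17.9) and Canx (96.4 ± 9.73). Neighbours in that order lay within each other's spread. Trib3 was the least abundant member, at 0.409 ± 0.232 CPM per kb, and its smallest count in a library was 38 reads. No member was near the floor of detection, set at 3 reads (0.0203 to 0.0602 CPM, for counting error only).

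**Figure D2:**
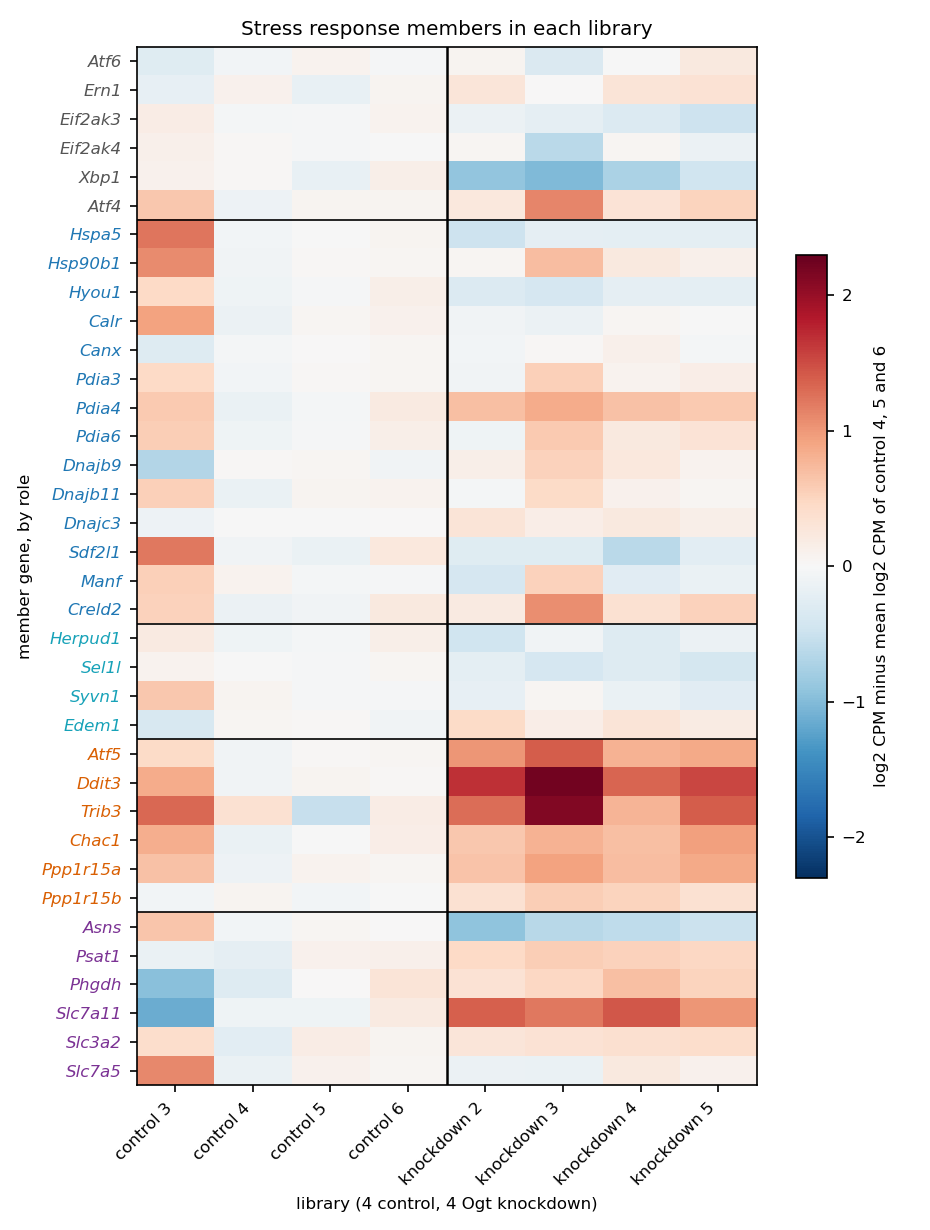
Each row is a member, grouped by role, and each column a library. Colour is the log2 CPM minus the mean log2 CPM of control replicates 4, 5 and 6, so that control replicate 3 can be read beside them. The largest positive values in control 3 are those of Trib3 (1.32), Hspa5 (1.23), Sdf2l1 (1.22), Slc7a5 (1.10) and Hsp90b1 (1.09), with Calr, Ddit3 and Chac1 at 0.84 to 0.92. All 4 knockdown libraries lie above 0.7 for Ddit3, Trib3, Slc7a11 and Atf5.

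Of the 6 sensors and transcription factors, Xbp1 was the only member past the threshold with all 8 libraries, and it fell. Xbp1 (ENSMUSG00000020484.20, chromosome 11, 5470659 to 5475893, plus strand, GRCm39) encodes the factor that IRE1 activates by splicing. Here and below, levels are listed in the order control replicates 3, 4, 5 and 6, then knockdown replicates 2, 3, 4 and 5. Xbp1 had 107, 102, 88.7 and 110 CPM in controls and 53.3, 49.4, 60.7 and 73 CPM in knockdowns. Each knockdown library lay below each control library. The mean went from 102 ± 9.45 to 59.1 ± 10.4 CPM (SD, n = 4 each), a 1.73-fold fall (log2 fold change -0.79, SE 0.14, edgeR adjusted p = 0.00359). The call held when any library was left out (log2 fold change -0.93 to -0.71, adjusted p at most 0.0151 with edgeR).

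Ern1, which encodes IRE1 itself, had 7.99 to 9.77 CPM in controls and 9.25 to 11.6 in knockdowns, and the groups overlapped (log2 fold change 0.28, SE 0.16, edgeR adjusted p = 0.217). Eif2ak3, the gene of PERK, lay lower in every knockdown (17.6 to 22.5 CPM) than in every control (23.8 to 27.8 CPM) but missed the threshold (log2 fold change -0.32, SE 0.13, edgeR adjusted p = 0.0938). Gm43292 covers 8.05% of its exon bases on the opposite strand. Eif2ak4, the gene of GCN2, had a log2 fold change of -0.17 (SE 0.17) and Atf6 one of 0.07 (SE 0.15), both with overlapping groups. The ranges were 17.8 to 19.5 and 11.7 to 18.7 CPM for Eif2ak4, and 28.7 to 36.8 and 27.6 to 40.7 CPM for Atf6, in controls and knockdowns.

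Atf4 was abundant and varied between libraries. Its levels were 397, 239, 271 and 270 CPM in controls and 306, 565, 321 and 369 CPM in knockdowns. Both libraries numbered 3 were the highest of their group, and control replicate 3 lay inside the knockdown range. With all 8 libraries the log2 fold change was 0.41 (SE 0.23, edgeR adjusted p = 0.209); without both libraries numbered 3 it was 0.35 (SE 0.10, edgeR adjusted p = 0.00934, n = 3 and 3). ATF4 is regulated largely at translation, which the amount of its ribosome-associated message does not show by itself.

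Of the 14 ER chaperones and folding enzymes, only Pdia4 passed the threshold with all 8 libraries. Pdia4, a protein disulfide isomerase, had 63.7, 37.8, 40.5 and 48.4 CPM in controls and 67.9, 75.6, 66.7 and 63.5 CPM in knockdowns. Control replicate 3 sat at the low end of the knockdown range and the other controls below it. It rose 1.44-fold (log2 fold change 0.52, SE 0.17, edgeR adjusted p = 0.0408). It did not pass once any of the other 7 libraries was removed (edgeR adjusted p up to 0.127), whereas without control replicate 3 the edgeR adjusted p was 0.00227.

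Hspa5 (ENSMUSG00000026864.14, chromosome 2, 34661982 to 34667559, plus strand, GRCm39) encodes BiP, the main Hsp70 chaperone of the ER, which also holds the sensors inactive. Its levels were 828, 339, 353 and 370 CPM in controls and 253, 308, 302 and 303 CPM in knockdowns. Every knockdown lay below every control, and control replicate 3 was far above all others. The log2 fold change was -0.70 (SE 0.28, edgeR adjusted p = 0.0861) with all libraries, -0.28 (SE 0.12, adjusted p = 0.0894) without control replicate 3, and -0.31 (SE 0.09, adjusted p = 0.0155) without both libraries numbered 3, all from edgeR. The size of the Hspa5 difference thus rested on control replicate 3, while its direction was the same without it.

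The same library was high for other chaperones. Hsp90b1, which encodes GRP94, the Hsp90 of the ER, had 354, 157, 170 and 171 CPM in controls and 171, 270, 194 and 180 in knockdowns; its log2 fold change was -0.06 (SE 0.27) with all libraries and 0.29 (SE 0.16) without control replicate 3, with edgeR adjusted p of 0.887 and 0.19. Calr, calreticulin, a lectin chaperone for glycoproteins, had 619 CPM in control replicate 3 against 298 to 351 in the other controls and 299 to 340 in knockdowns (log2 fold change -0.33, SE 0.22, edgeR adjusted p = 0.283). Sdf2l1, a partner of BiP and its J-domain proteins, had 44.3 CPM there, 17.1 to 22.4 in the other controls and 12.4 to 16 in knockdowns (log2 fold change -0.77, SE 0.29, edgeR adjusted p = 0.0707). In the 18 genes of the chaperone and degradation arm, control replicate 3 lay above the other 3 controls for 14 and below them for 4, and above every other library for 10. Over all genes tested those shares were 40.3%, 41.9% and 25.2%. Vascular markers were also highest in this library (1030 CPM summed over 10 endothelial genes), and their part in the chaperone levels was not tested.

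The remaining folding genes did not pass the threshold with all 8 libraries. Canx, calnexin, had 387 to 488 CPM in controls and 454 to 516 in knockdowns (log2 fold change 0.08, SE 0.12). Pdia3, the disulfide isomerase that works with calnexin and calreticulin, and Pdia6 had log2 fold changes of 0.06 (SE 0.17) and 0.12 (SE 0.19). Pdia3 ranged from 280 to 403 CPM in controls and 275 to 426 in knockdowns, and Pdia6 from 101 to 160 and 101 to 164 CPM. Dnajb11, a J-domain partner of BiP, had one of -0.01 (SE 0.17), with 46.6 to 75.6 CPM in controls and 50.3 to 70.5 in knockdowns. Hyou1, a nucleotide exchange factor for BiP, lay lower in every knockdown (109 to 123 CPM) than in every control (133 to 194 CPM), at a log2 fold change of -0.41 (SE 0.14, edgeR adjusted p = 0.0516). Dnajb9 and Dnajc3, further J-domain proteins, lay higher in every knockdown (58.2 to 80.3 and 76.8 to 85.6 CPM) than in every control (34.7 to 57.4 and 64.6 to 70.6 CPM) without passing (log2 fold changes 0.40 and 0.23, SE 0.18 and 0.10, edgeR adjusted p = 0.122 and 0.119). Manf, a secreted protein of the ER, and Creld2 were both highest in knockdown replicate 3 among the knockdowns (105 and 60.6 CPM, against 56 to 65.9 and 33.6 to 41.7 CPM in the other 3). In controls they had 70.3 to 107 and 26.4 to 41.7 CPM, and their log2 fold changes were -0.18 (SE 0.22) and 0.42 (SE 0.22), with edgeR adjusted p of 0.578 and 0.177. Without both libraries numbered 3, Hyou1, Hspa5, Sdf2l1 and Manf fell, and Pdia4, Dnajc3 and Creld2 rose (edgeR, log2 fold changes -0.39 to -0.25 and 0.22 to 0.64). That is 50% of the 14 folding genes, beside 46.8% of all genes in that setting, so these calls were near the background.

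Promoters of the members were searched for the elements that the response factors are known to bind. Sequences are RefSeq promoters of GRCm38.p6, from 250 bases before to 50 bases after the gene start; 31 of the 36 members had one. The ER stress response element was taken as CCAAT and CCACG with 9 bases between them, on either strand. It was present in 8 of the 31 members (25.8%), all of them chaperone or degradation genes, and in 37 of 27025 genes (0.137%). The element TGACGTGG, a core that XBP1 is known to bind, was in none of the 31 members and in 0.714% of genes. A match is a description of the letters only. The members were chosen by their role in this response, so their share beside that of all genes is not a test. On the log2 scale, Trib3, Sdf2l1 and Slc7a11 spread more between controls than Hspa5, which had the largest SD between controls in CPM (237). Hspa5 was picked for that SD and as the best known target. Its promoter is shown as the 250 bases before the gene start (chr2:34771840-34772089, plus strand, GRCm38.p6), with the element in capitals.
Hspa5: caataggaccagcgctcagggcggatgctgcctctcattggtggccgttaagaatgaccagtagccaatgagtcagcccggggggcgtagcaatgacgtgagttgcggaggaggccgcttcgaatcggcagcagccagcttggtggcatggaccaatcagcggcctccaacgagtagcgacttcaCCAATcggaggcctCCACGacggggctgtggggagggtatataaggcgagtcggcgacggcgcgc

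Windows around the element in other members are given for comparison. Capitals mark the element, which reads CGTGG and ATTGG where it lies on the opposite strand. These letters are alike because they were searched for. The windows are those of Calr (chr8:84847065-84847103, minus strand), Hsp90b1 (chr10:86705628-86705666, minus strand), Canx (chr11:50325790-50325828, minus strand), Pdia6 (chr12:17266481-17266519, plus strand), Dnajc3 (chr14:118937817-118937855, plus strand), Creld2 (chr15:88819510-88819548, plus strand) and Syvn1 (chr19:6046522-6046560, plus strand), all in GRCm38.p6.
Calr: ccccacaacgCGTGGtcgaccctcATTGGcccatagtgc
Hsp90b1: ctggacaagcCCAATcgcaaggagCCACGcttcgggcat
Canx: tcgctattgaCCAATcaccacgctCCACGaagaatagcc
Pdia6: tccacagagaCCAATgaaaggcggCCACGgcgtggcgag
Dnajc3: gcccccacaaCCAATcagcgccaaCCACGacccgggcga
Creld2: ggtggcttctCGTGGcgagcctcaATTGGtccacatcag
Syvn1: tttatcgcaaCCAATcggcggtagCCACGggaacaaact

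None of the 8 members with this element was called with all 8 libraries by edgeR (28.5% of all genes) or DESeq2 (34.5% of all genes). Of the 8, 2 had an unadjusted edgeR p under 0.05, as did 20 of all 36 members. The share of all genes under that p is not given here. With limma-voom, 3 of the 8 and 51.3% of all genes were called. In 6 of the 8, control replicate 3 was the highest control; the exceptions were Canx and Dnajc3. Hsp90b1 held a further copy of the element nearer to the gene start, on the opposite strand and outside the window shown.

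Of the 4 genes of ER-associated degradation, 1 fell. Sel1l, the adaptor that links misfolded proteins to the ubiquitin ligase Syvn1, had 182, 171, 170 and 177 CPM in controls and 147, 133, 141 and 130 CPM in knockdowns. All knockdowns lay below all controls, and control replicate 3 was close to the other controls. The mean went from 175 ± 5.58 to 138 ± 7.97 CPM (SD, n = 4 each), a 1.27-fold fall (log2 fold change -0.35, SE 0.10, edgeR adjusted p = 0.0318). Removing control replicate 4, 5 or 6, or knockdown replicate 4 or 5, ended that call (edgeR adjusted p up to 0.0937). Sel1l was also not called with upper quartile scaling (log2 fold change -0.26, edgeR adjusted p = 0.094) or without a filter (edgeR adjusted p = 0.0765).

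Syvn1 itself had 48.6, 32.8, 30.9 and 31 CPM in controls and 27.7, 32.6, 28.2 and 26.3 in knockdowns (log2 fold change -0.32, SE 0.17, edgeR adjusted p = 0.192). Herpud1, a scaffold of the same complex, had 100 to 123 CPM in controls and 77.6 to 102 in knockdowns (log2 fold change -0.29, SE 0.13, edgeR adjusted p = 0.117). Edem1, which hands glycoproteins over for degradation, lay higher in every knockdown (24.7 to 30.3 CPM) than in every control (17.4 to 23.1 CPM) and missed the threshold (log2 fold change 0.35, SE 0.14, edgeR adjusted p = 0.0872). Without both libraries numbered 3, Sel1l and Herpud1 fell and Edem1 rose (edgeR adjusted p = 0.0081, 0.0253 and 0.0271). That setting called 46.8% of all genes (23.5% higher, 23.3% lower).

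Of the 6 genes that are ATF4 stress targets or cofactors of the eIF2 phosphatase, 4 rose with all 8 libraries. When control replicate 3 was left out, 6 rose, beside 18.1% of all genes higher (34.9% called in either direction). Ddit3 (ENSMUSG00000025408.16, chromosome 10, 127126643 to 127132157, plus strand, GRCm39) encodes CHOP, a transcription factor induced in prolonged stress. Its levels were 70, 36.6, 40 and 39.1 CPM in controls and 123, 179, 97.4 and 111 CPM in knockdowns. The groups did not overlap, and in each group the library numbered 3 was the highest. The mean went from 46.4 ± 15.8 to 128 ± 35.5 CPM (SD, n = 4 each), a 2.75-fold rise (log2 fold change 1.46, SE 0.25, edgeR adjusted p = 0.00258), and the log2 fold change was 1.25 to 1.72 with any library left out. The symbol pairs with a further ID that held 0 reads and shares 105 of its 1713 exon bases; 68 bases (3.97%) are shared with Mars on the opposite strand, where reads cannot be assigned without strand.

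Atf5, a factor whose translation is controlled like that of ATF4 (ENSMUSG00000038539.16, chromosome 7, 44461680 to 44466082, minus strand, GRCm39), had 49.9, 34.8, 37.6 and 38.1 CPM in controls and 74.3, 97.1, 63.9 and 66.9 CPM in knockdowns. Every knockdown exceeded every control. The rise was 1.88-fold (40.1 ± 6.68 to 75.5 ± 15 CPM, SD, n = 4 each; log2 fold change 0.91, SE 0.17, edgeR adjusted p = 0.00373), and it was called with any library left out; 4.11% of its exon bases are shared with Nup62 and Il4i1 on the opposite strand.

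The cofactors that direct phosphatase to eIF2 both rose. Ppp1r15b, the constitutive one, had 58.5, 63.9, 58.3 and 60.9 CPM in controls and 77.4, 90.2, 86.9 and 77.6 CPM in knockdowns. The groups did not overlap and control replicate 3 lay among the controls. It rose 1.37-fold (log2 fold change 0.46, SE 0.11, edgeR adjusted p = 0.0107). The edgeR adjusted p was 0.0102 to 0.0473 with any library left out, but without a filter the gene was not called (0.0561). The opposite-strand gene Gm26616 shares 11.4% of the exon bases of Ppp1r15b. Ppp1r15a, the stress-induced cofactor GADD34, had 38.4, 22.1, 25.4 and 24.9 CPM in controls and 37.9, 46, 39.4 and 44.1 CPM in knockdowns. Control replicate 3 lay inside the knockdown range. Its rise of 1.51-fold (log2 fold change 0.59, SE 0.18, edgeR adjusted p = 0.0333) did not pass once any of the other 7 libraries was removed (edgeR adjusted p up to 0.105), and without control replicate 3 the log2 fold change was 0.79 (edgeR adjusted p = 0.00112).

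Chac1 and Trib3 followed the same pattern in control replicate 3. Chac1, an enzyme that breaks down glutathione, had 32.7, 16.5, 18 and 20.3 CPM in controls and 27.9, 31.7, 29.3 and 35 CPM in knockdowns. Trib3, a pseudokinase, had 1.57, 0.793, 0.419 and 0.693 CPM in controls and 1.53, 2.75, 1.07 and 1.65 CPM in knockdowns. In both genes control replicate 3 reached the knockdown range and the other controls lay below it. With all libraries their log2 fold changes were 0.50 (SE 0.21) and 1.01 (SE 0.46), with edgeR adjusted p of 0.106 and 0.129; without control replicate 3 they were 0.76 (SE 0.13) and 1.47 (SE 0.40), with edgeR adjusted p of 0.00214 and 0.0181.

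**Figure D3:**
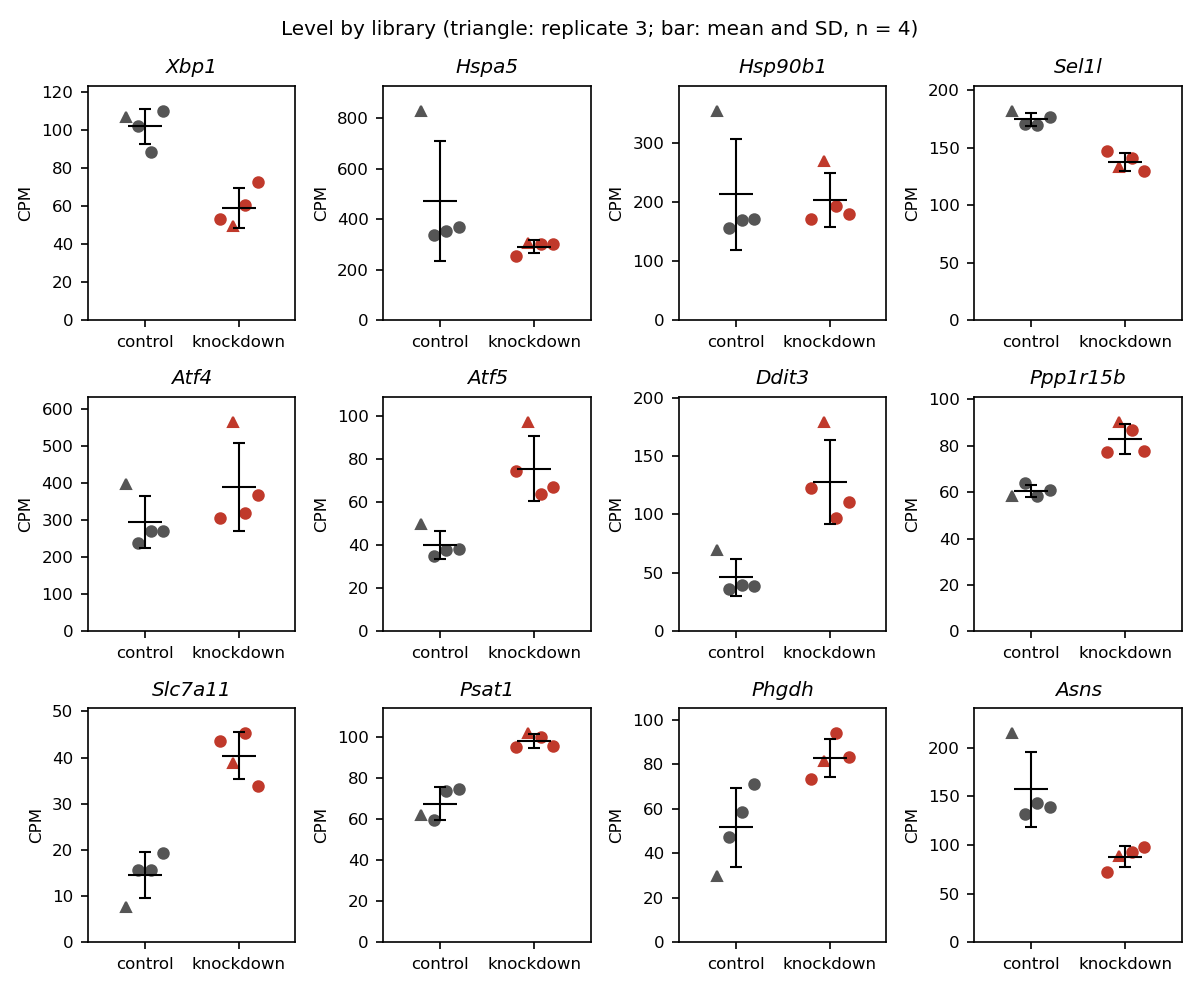
CPM in each library for 12 members, with controls on the left and Ogt knockdowns on the right of each panel (vertical axis from 0). Points are libraries, triangles the replicates numbered 3, and bars the mean and SD (n = 4). Hspa5 reached 828 CPM in control replicate 3 and 339 to 370 CPM in the other controls, and its groups did not overlap; the groups are also apart for Xbp1, Sel1l, Atf5, Ddit3, Ppp1r15b, Slc7a11, Psat1, Phgdh and Asns.

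The amino acid genes did not move as a block: of 6, 3 rose and 1 fell. Slc7a11 (ENSMUSG00000027737.11, chromosome 3, 49846975 to 50398063, minus strand, GRCm39) encodes xCT, which brings in cystine in exchange for glutamate. It had 7.65, 15.7, 15.7 and 19.4 CPM in controls and 43.6, 38.8, 45.3 and 33.9 CPM in knockdowns. The groups were far apart and control replicate 3 was the lowest library. The mean went from 14.6 ± 4.97 to 40.4 ± 5.14 CPM (SD, n = 4 each), a 2.76-fold rise (log2 fold change 1.47, SE 0.25, edgeR adjusted p = 0.00259), and it was 1.25 on the log2 scale without control replicate 3.

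Asns (ENSMUSG00000029752.13, chromosome 6, 7675169 to 7693254, minus strand, GRCm39), asparagine synthetase, a classic ATF4 target, went the other way. Its levels were 215, 132, 143 and 139 CPM in controls and 72.5, 88.6, 92.6 and 97.7 CPM in knockdowns. Every knockdown lay below every control, with control replicate 3 highest. The mean went from 157 ± 38.6 to 87.8 ± 10.9 CPM (SD, n = 4 each), a 1.79-fold fall (log2 fold change -0.84, SE 0.18, edgeR adjusted p = 0.00646). Without control replicate 3 the log2 fold change was -0.66 (edgeR adjusted p = 0.00286). Dopamine neuron markers also fell (8 of 9). Their sum was 2630 CPM in control replicate 3, 1230 to 1500 in the other controls and 365 to 583 in knockdowns. The part of these markers in the falls of Asns, Xbp1 and Sel1l was not tested.

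Phgdh and Psat1 encode successive enzymes of serine synthesis, which in the brain are known to be abundant in astrocytes. Psat1 had 62.1, 59.7, 73.9 and 74.9 CPM in controls and 95.3, 102, 100 and 95.7 CPM in knockdowns, with no overlap, and rose 1.45-fold (log2 fold change 0.54, SE 0.12, edgeR adjusted p = 0.00749). Phgdh had 29.7, 47.2, 58.6 and 71.2 CPM in controls and 73.3, 81.2, 93.9 and 83.1 CPM in knockdowns. The groups did not overlap, but the highest control and the lowest knockdown were close. Its rise of 1.6-fold (log2 fold change 0.68, SE 0.23, edgeR adjusted p = 0.0494) was no longer called when control replicate 4, control replicate 5 or any knockdown library was removed (edgeR adjusted p up to 0.138). Astrocyte markers differed between the groups in the same direction as these genes and Slc7a11. Their sum was 1460 CPM in control replicate 3, 3740 to 5520 CPM in the other controls and 9610 to 13800 CPM in knockdowns. Much of the knockdown sum was Gfap (5370 to 8400 CPM, against 237 to 1860 CPM in controls). The groups overlapped for Slc1a3, Aldoc and Fgfr3 and were apart for the other astrocyte markers. The part of astrocyte markers in the rises was not tested.

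Slc3a2, the heavy chain that xCT and LAT1 share, had 133, 85.7, 114 and 105 CPM in controls and 122, 128, 130 and 134 CPM in knockdowns (log2 fold change 0.23, SE 0.14, edgeR adjusted p = 0.25). Slc7a5, the light chain LAT1, had 128, 53.8, 64 and 61.7 CPM in controls and 54.1, 53.5, 69.7 and 64.2 CPM in knockdowns. Its log2 fold change of -0.35 (SE 0.26, edgeR adjusted p = 0.341) became 0.01 (SE 0.13) without control replicate 3. Both chains are known from the endothelium of brain vessels. Endothelial markers summed to 1030 CPM in control replicate 3, at most 22.8 CPM in the other controls and 31.3 to 49.9 CPM in knockdowns. Their part in the levels of Slc3a2 and Slc7a5 was not tested.

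The composite element that ATF4 binds with its partners, searched as TGATGNAAN on both strands, was present in 5 of the 31 members with a promoter (16.1%) and in 4.5% of 27025 genes. The 5 were Asns, Chac1, Herpud1, Slc7a11 and Trib3. Here too the members were chosen by role, so the shares are not a test. The 250 bases before the start of Slc7a11 (chr3:50443614-50443863, minus strand, GRCm38.p6) are shown because it rose most of the amino acid genes and holds a pair of copies, in capitals, that face each other.
Slc7a11: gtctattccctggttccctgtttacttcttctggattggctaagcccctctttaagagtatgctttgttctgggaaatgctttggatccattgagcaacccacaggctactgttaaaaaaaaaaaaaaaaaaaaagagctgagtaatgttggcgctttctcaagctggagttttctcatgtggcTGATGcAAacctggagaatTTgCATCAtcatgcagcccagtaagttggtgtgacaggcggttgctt

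The window of Asns, which fell, is given for contrast with those of Chac1 and Herpud1, which were not called; the last 2 hold the element on the opposite strand. They lie at chr6:7693214-7693242 (minus strand), chr2:119351038-119351066 (plus strand) and chr8:94386306-94386334 (plus strand) of GRCm38.p6.
Asns: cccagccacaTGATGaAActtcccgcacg
Chac1: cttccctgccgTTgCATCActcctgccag
Herpud1: accacggcgggTTgCATCAgcccgcaccc

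Members that share these letters thus included 1 that rose (Slc7a11), 1 that fell (Asns) and 3 that edgeR did not call with all 8 libraries. Of the 5, 4 had an unadjusted edgeR p under 0.05, a share not given here for all genes. DESeq2 called 2 of the 5 (34.5% of all genes), and limma-voom called all 5 (51.3% of all genes). Members without a match in these promoter windows also rose, Ddit3, Atf5 and Psat1 among them.

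Set side by side within each library, the arms differed between control replicate 3 and the knockdowns. The median of the ATF4 arm, as log2 CPM minus the mean of control replicates 4, 5 and 6, was 0.54 in control replicate 3 and 0.54 to 0.69 in the knockdowns. The median of the chaperone and degradation arm was 0.53 in control replicate 3 and -0.08 to 0.15 in the knockdowns. All genes tested had medians of -0.01 in control replicate 3 and 0.00 to 0.06 in the knockdowns. Within the ATF4 arm, control replicate 3 had a median of 0.76 for the 6 stress and phosphatase genes. It had 0.12 for the 6 amino acid genes, where Slc7a11 (-1.14), Phgdh (-0.97) and Psat1 (-0.15) lay below the other controls' mean. In the knockdowns these medians were 0.74 to 1.17 and 0.30 to 0.45. Knockdown replicate 3 was nearer to control replicate 3 for the 14 chaperones alone, with a median of 0.48. These medians are descriptions of chosen genes and carry no test.

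**Figure D4:**
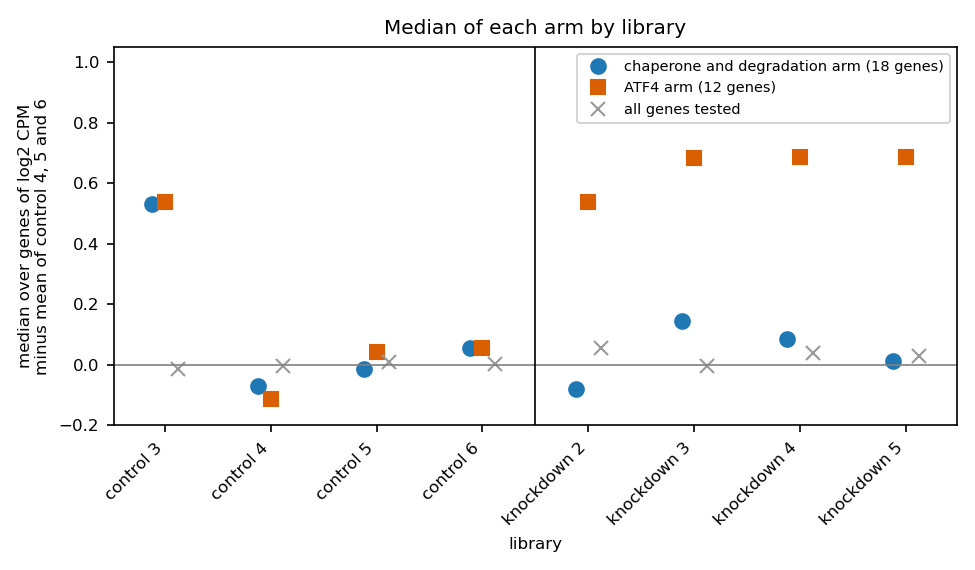
For each library (horizontal axis), the median over genes of log2 CPM minus the mean of control replicates 4, 5 and 6, for the 18 genes of the chaperone and degradation arm, the 12 of the ATF4 arm and all 19912 genes tested. Control 3 has 0.53 and 0.54 for the arms, while knockdowns have -0.08 to 0.15 and 0.54 to 0.69.

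Other genes of the same pathways, from lists set by role, were called about as often as genes at large: of 94 tested, 17 rose and 7 fell (25.5%, all genes 28.5%). Of 24 further ATF4 targets tested, 7 rose and 1 fell. Eif4ebp1, a repressor of cap-dependent translation, had 1.68 to 3.35 CPM in controls and 9.02 to 10.3 in knockdowns and rose 3.45-fold (edgeR adjusted p = 0.000855). Psph, the last enzyme of serine synthesis, had 10.6 to 15.1 and 23.2 to 29.1 CPM and rose 1.98-fold (edgeR adjusted p = 0.00161), and Ddit4, an inhibitor of mTORC1, rose 1.44-fold (edgeR adjusted p = 0.0113).

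Of 12 cytosolic tRNA synthetases, 1 rose and 2 fell. Aars fell 1.64-fold (211 to 367 CPM in controls, 141 to 180 in knockdowns, edgeR adjusted p = 0.0173), Iars fell 1.48-fold (adjusted p = 0.0301) and Yars rose 1.3-fold (adjusted p = 0.0437). Of 26 further folding and translocation genes, 3 rose and 2 fell. Cdnf, a relative of Manf, had 1.06 to 1.37 CPM in controls and 2.9 to 4.33 in knockdowns and rose 2.91-fold (edgeR adjusted p = 0.00214), Dnajc10, an ER reductase, fell 1.53-fold (adjusted p = 0.00284), and Sec62, a part of the translocation machinery, rose 1.44-fold (adjusted p = 0.013).

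Of 15 further degradation genes, 3 rose and 2 fell. Vcp, the ATPase that pulls proteins out of the ER membrane, fell 1.42-fold (338 to 438 CPM in controls, 225 to 284 in knockdowns, edgeR adjusted p = 0.0198), while Derl3 and Erlec1 rose 2.13-fold and 1.45-fold (adjusted p = 0.0222 and 0.0376). Of 17 further sensors and regulators, 3 rose and 14 did not pass. Those that rose were Creb3, a membrane-bound factor cut like ATF6 (1.58-fold, edgeR adjusted p = 0.00416), Wfs1, wolframin, a protein of the ER membrane (1.77-fold, 0.00736), and Tmbim6, an inhibitor of cell death in the ER (1.47-fold, 0.0239).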

How the data were processed

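The authors deposited 1 table of raw read counts per gene for the 8 libraries. Per the file headers, counts were made with featureCounts 2.0.3 over exons of GENCODE vM30, without an option for strand or for counting pairs. FastQC, Trimmomatic, STAR and mm10 are named in the submitters' processing notes. The annotation vM30 belongs to GRCm39 rather than mm10; which build the reads were aligned to was not settled. Gene coordinates are those of the table, whose exon lengths served only for levels per kilobase, and promoter sequences are RefSeq's (GRCm38.p6). Symbols were matched by gene ID.

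Genes were filtered with filterByExpr, scaled by TMM and tested with edgeR 4.0.16 under R 4.3.3 (robust quasi-likelihood F test, two-sided), with p-values adjusted over 19912 genes and a threshold of 0.05. The test was tried on simulated counts. The settings varied were the scaling (RLE, upper quartile), the filter (none, or a CPM of 1 reached in 4 libraries), the tool (DESeq2 1.42.0, limma-voom of limma 3.58.1 with sample weights), the replicate number as a block, and the libraries left out. Libraries of the same group differed by a chi-square per degree of freedom of 22.9 to 420, so none were duplicates. All 36 members are described, with the 3 genes of smallest p in each of 5 lists of other pathway genes. Members and lists were chosen with earlier results of these data known. No set test was run.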

Additional observations from a re-analysis of the deposited data

Results flagged for a closer look

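Within groups of 4, the gap between the most extreme library and its neighbour was divided by the group's range and compared with Dixon's 95% limit, for 72 groups (36 members in controls and knockdowns); chance flags about 1 group in 20, and 10 were over the limit. In 8 of the 10, control replicate 3 was the high library. The ratios were 0.936 for Hspa5, 0.929 for Hsp90b1, 0.834 for Calr, 0.842 for Pdia3, 0.891 for Syvn1, 0.899 for Ddit3, 0.87 for Asns and 0.863 for Slc7a5, all in controls. The other 2 were low knockdown libraries: Hspa5 in knockdown replicate 2 (253 CPM, others 302 to 308, ratio 0.903) and Sdf2l1 in knockdown replicate 4 (12.4 CPM, others 15.6 to 16, ratio 0.888). Over all genes tested, control replicate 3 was the highest control for 40.3% and the lowest for 41.9%. The share of groups over the limit among all genes is not given here, and groups from the same libraries are not independent. Control replicate 3 is also the library with the high endothelial markers given above. The part of those markers in these values was not tested.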

How the results depend on the processing

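Of the 11 called members, all 11 were also called with RLE scaling, the strict filter, DESeq2, limma-voom, without control replicate 3 and without both libraries numbered 3; 10 were with upper quartile scaling and 7 without a filter. The number of called members was 24 with limma-voom and 23 without both libraries numbered 3, and 7 to 13 with single libraries left out. For the chaperone and degradation arm it was 1 without a filter (5.56%, all genes 14.6%), 4 with DESeq2 (22.2%, all genes 34.5%), 9 with limma-voom (50%, all genes 51.3%), 10 without both libraries numbered 3 (55.6%, all genes 46.8%) and 0 to 2 with single libraries left out; for the ATF4 arm the last range was 6 to 10. Over all genes it was 10208 with limma-voom, 9565 without both libraries numbered 3 and 3876 to 7198 with single libraries left out. The cause of these shifts was not tested.

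The labels do not say what a shared replicate number stands for, and the samples were not treated as pairs. Same-numbered libraries' deviations from the group means correlated at 0.104, 0.099 and 0.042 for numbers 3, 4 and 5, and control replicate 5 correlated best with knockdown replicate 4 (0.044). In the paired analysis, where this number was a block (3 pairs), edgeR called 3 members (Atf5, Ddit3 and Slc7a11), 0 in the chaperone and degradation arm, 3 in the ATF4 arm and 1258 genes in all (6.32%); libraries without a partner add nothing to that difference. The block log2 fold changes were 0.002 for Hsp90b1 and 0.042 for Dnajb11, against -0.06 and -0.01 without it.

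Members that changed sign were not called in any of these settings. The log2 fold change of Dnajb11 was 0.011 with RLE scaling, 0.078 with upper quartile scaling, 0.019 with the strict filter, 0.011 with DESeq2, 0.036 with limma-voom and 0.026 without both libraries numbered 3. That of Hsp90b1 was 0.025 with upper quartile scaling, 0.157 with limma-voom and 0.131 without both libraries numbered 3, and that of Slc7a5 was 0.065 with limma-voom and 0.063 without both. With single libraries left out the ranges were -0.04 to 0.164 for Atf6, -0.227 to 0.294 for Hsp90b1, -0.081 to 0.187 for Pdia3, -0.007 to 0.277 for Pdia6, -0.129 to 0.137 for Dnajb11 and -0.508 to 0.009 for Slc7a5.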
